A study of Arabidopsis thaliana with 26 samples.

Results

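The transcripts described here were high in aerial tissue of compost-grown Arabidopsis thaliana plants coded 24f, were not raised to that extent in the group coded 03f, and stayed within set limits when wild-type plants were chilled on agar. They are 62 of the 22810 probe sets of the ATH1 array, a 1-colour format in which each probe set reports 1 transcript or a few similar ones. Members were chosen on group means of log2(intensity + 16). The 24f mean had to exceed the 00f mean by at least 1.5, the 03f mean had to exceed the 00f mean by less than 0.5, and the wild-type cold mean had to lie within 1 of the wild-type control mean. A short list of autophagy, defensin and sugar-repressed genes, and chloroplast-encoded genes, was to be left out by name, which removed 0 of the probe sets that met the 3 limits. Of the 62, 27 are listed with 1 gene in the platform annotation, 1 is listed with several genes and 34 carry no gene name there.

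The study compared wild-type Columbia-0 (wt) with 3 mutant lines labelled sf6, sf3 and sf2, obtained by EMS mutagenesis in the same background. The series title calls the mutations sfr6, sfr3 and sfr2. Seedlings of these 10 groups grew on agar at 21 °C, 100% humidity and 24 h of light a day. Each line was measured untreated and after 24 h at 4 °C, and wt and sf6 also after the aerial tissue was cut off and held in dry air for 2 h. The other 3 groups, coded 00f, 03f and 24f, grew in insecticide-treated compost, at 4 °C by their labels, 70% humidity and 9 h of light a day. The labels give them no genotype, and they do not say what the code stands for. Each of the 13 groups had 2 arrays, each made from aerial tissue of 18 pooled plants, and nothing says that the 2 arrays of a group came from separate sowings. The p-values below therefore cover only the variation among these arrays, part or all of which may be technical.

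The SFR loci are named for sensitivity to freezing after cold acclimation, the process by which plants kept at low, non-freezing temperature become able to survive frost. SFR6 encodes a subunit of Mediator, the complex that links transcription factors to RNA polymerase II, and SFR2 encodes a galactolipid-remodelling enzyme of the chloroplast envelope. Drying of leaves acts in large part through abscisic acid, a hormone that raises many stress transcripts.

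All arrays had been scaled to one level (a trimmed mean of 100.01 on each), and the correlation between the 2 arrays of a group was 0.983 to 0.9918 over probe sets. The leaf markers RCA, the activase of Rubisco, and LHCB4.2, a light-harvesting protein, averaged 2105 and 1699 intensity units in 00f and 2403 and 2648 in 24f. In 03f they averaged 1926 and 892, so LHCB4.2 was not stable across the compost groups. FAMA, a guard cell regulator, averaged 34.6 in 00f, 40.85 in 03f and 41.4 in 24f. Of the markers listed, 2 of 5 for leaf and 1 of 2 for guard cells had a probe set named in the annotation. The vascular and the flower and seed marker lists had no probe set named in the annotation, and the 1 root marker measured, PYK10, is itself a member. In bulk tissue, fewer cells of a type and less RNA per cell cannot be told apart.

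In the compost groups the members were highest in 24f. The values in this paragraph and the next 5 chose the members and are given as a description, with no test. The difference 24f minus 00f ran from 1.501 to 3.34 with a median of 1.70, against a median of 0.0 over all probe sets. The difference 03f minus 00f ran from -2.77 to 0.42 with a median of 0.01. In 62 of 62 members both 24f arrays lay above both 00f and both 03f arrays, and in 61 the lower 24f array was at least 1 log2 unit above the higher 00f array. Levels were modest, with a median of the members' mean intensities of 35.0 in 00f and 183 in 24f, and 15 members averaged under 16 in 00f, so that their change is understated on the log2(intensity + 16) scale. In limma, 58 of the 62 passed the filter on dim probe sets. AtS40-3, AT4G04410 and AT3G10320 were among those that did not. All 58 were called higher in 24f than in 00f, where 20.9% of all tested probe sets were called higher, a count the choice of members fixes.

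**Figure D1:**
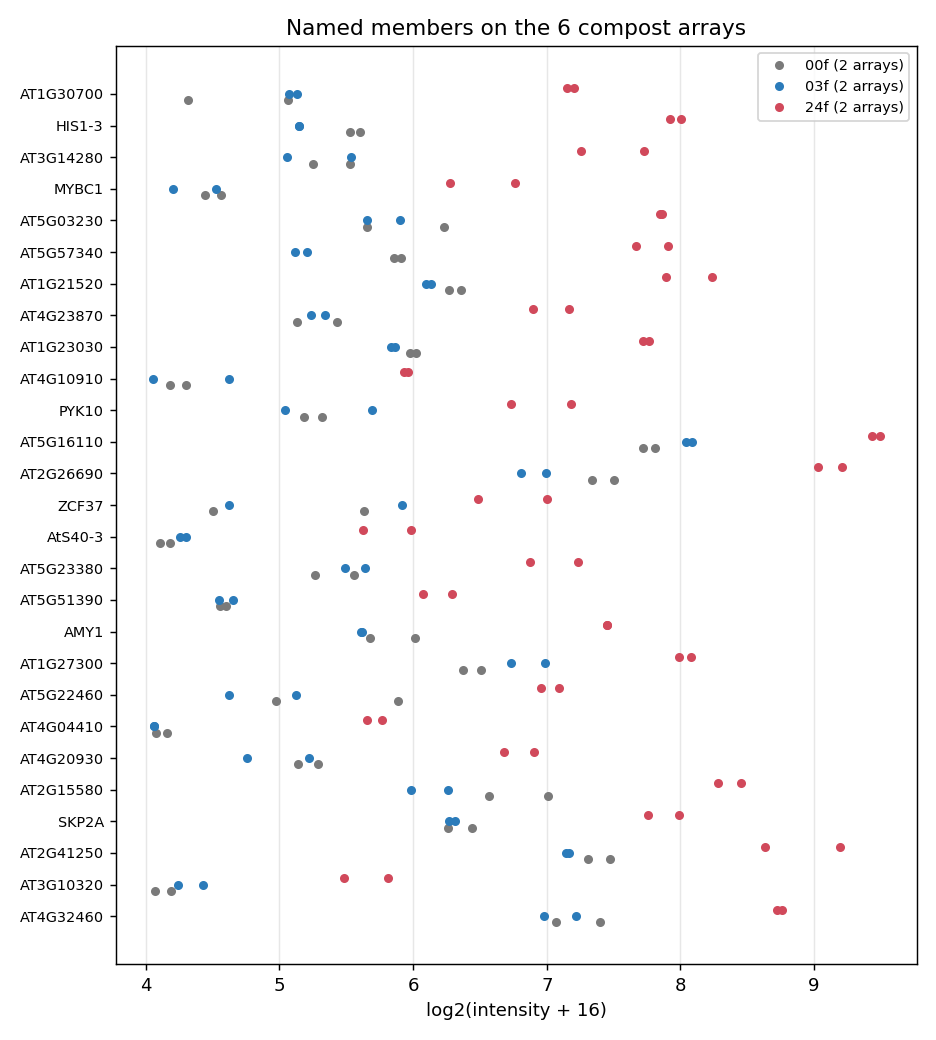
The 27 members listed with 1 gene on the 6 compost arrays, as log2(intensity + 16) on the x axis; each point is 1 array, 2 per group. In every row both 24f points lie to the right of all 00f and 03f points.

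Among regulators of transcription and chromatin, HIS1-3, a linker histone known to be raised by drought and abscisic acid, read 32.6 and 30.1 in 00f, 19.5 and 19.5 in 03f, and 226.1 and 240.8 in 24f, a difference of 2.40 from 00f. MYBC1, a MYB-type factor reported to restrain freezing tolerance, read 7.6 and 5.8 in 00f, 7.0 and 2.4 in 03f, and 92.5 and 61.7 in 24f. AtS40-3, of a family linked to leaf senescence, read 1.2 and 2.1 in 00f, 3.7 and 3.1 in 03f, and 33.4 and 47.2 in 24f. For HIS1-3 and MYBC1 the 03f arrays sat at or below the level of 00f, and for AtS40-3 all 00f and 03f arrays were close to 0. AT5G03230, whose product carries the same kind of domain as the S40 family, read 34.4 and 59.3 in 00f and 214.0 and 216.5 in 24f.

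Genes of protein turnover were next. AT1G23030, a U-box ubiquitin ligase, read 47.0 and 49.0 in 00f, 42.3 and 41.1 in 03f, and 201.3 and 194.7 in 24f, a difference of 1.74. SKP2A, an F-box protein that marks cell cycle factors for degradation, read 60.7 and 70.7 in 00f and 238.7 and 200.7 in 24f. AT2G15580, a RING-type protein, read 78.7 and 112.7 in 00f, 60.6 and 47.2 in 03f, and 294.4 and 334.0 in 24f. Both 03f arrays of AT2G15580 were below both 00f arrays, while those of SKP2A lay between 61.0 and 63.4, within the 00f range.

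Among metabolic and transport genes, 03f lay on either side of 00f. AMY1, an alpha-amylase that cuts starch, read 35.3 and 48.6 in 00f, 32.9 and 33.2 in 03f, and 159.2 and 159.1 in 24f. AT1G30700, an oxidoreductase of the berberine bridge enzyme type, had the largest difference among members with 1 gene, 2.49. It read 3.9 and 17.4 in 00f, 19.1 and 17.6 in 03f, and 126.4 and 131.7 in 24f. AT2G26690, a transporter of the nitrate and peptide family (NPF6.2), read 145.8 and 165.3 in 00f, 111.3 and 95.8 in 03f, and 505.6 and 574.7 in 24f. PYK10, a beta-glucosidase stored in the ER bodies of roots and hypocotyls, stood apart by its level elsewhere. It read 24.0 and 20.4 in 00f, 35.8 and 16.9 in 03f, and 129.4 and 90.1 in 24f, while untreated wt plants on agar read 1659.1 and 1579.7. AT4G20930, an enzyme of valine breakdown, averaged 21.1 in 00f and read 103.6 and 86.7 in 24f. AT4G32460, a cell wall protein of the DUF642 family, read 118.4 and 152.3 in 00f and 406.6 and 417.5 in 24f. The hydrolases AT2G41250 (HAD-like) and AT5G22460 (alpha/beta type) differed by 1.52 and 1.60 between 24f and 00f, and AT3G10320, a glycosyltransferase, by 1.52. AT4G20930, AT3G10320 and AT4G04410 fall outside the rule that chose which genes to name and were added after their values were seen.

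The other members with 1 gene are given no role here. Their differences from 00f ran from 1.59 for AT4G04410, listed as a pseudogene in RefSeq, to 2.11 for AT3G14280, which read 22.0 and 30.1 in 00f and 137.1 and 195.9 in 24f. AT5G57340 was 1.90 above 00f, AT1G21520 and AT4G23870 both 1.75, and AT4G10910 and AT5G16110 both 1.70. ZCF37 was 1.67 above 00f, AT5G23380 1.64, AT5G51390 1.61 and AT1G27300 1.60. The 35 members without a single gene name spanned 1.501 to 3.34, and the highest, 262482_at, read 1.1 and 0.6 in 00f and 150.9 and 158.7 in 24f.

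Members differed in how 03f compared with 00f. The 03f mean was below the 00f mean in 29 members and above it in 32, and it was lower by 0.5 or more in 9. The lowest 03f value relative to 00f was that of 252965_at, which read 103.1 and 94.2 in 00f, 1.3 and 0.3 in 03f, and 275.0 and 433.7 in 24f. It was followed by 256469_at (-1.19), 261480_at (-1.15) and 261226_at (-1.13). These 4 probe sets carry no gene name and were singled out after their values were seen. At the limits of the rule, 252983_at (1.501), AT4G32460 (1.51) and 251373_at (1.51) lay just inside the 24f limit, and 254089_at (1.499), AT1G26920 (1.48) and 248282_at (1.47) just outside. AT1G13990 missed the 03f limit at 0.53, where AT1G27300 was inside at 0.42. AT5G50335 missed the lower cold limit at -1.002, where 247866_at was inside at -0.98, and 264654_s_at missed the upper limit at 1.03, where 247095_at was inside at 0.68.

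The 24f level was also high beside the other 24 arrays. In 51 of 62 members (82.3%) the lower 24f array exceeded every array of the other 12 groups, and in 32 it exceeded them by more than 2-fold. Over all probe sets 24f was highest in this sense in 8.81%. It was highest in 85 of the 169 probe sets that met the 24f and 03f limits but fell by more than 1 log2 in wt cold. Part of this is fixed by the rule, which uses 24f, 00f, 03f, wt control and wt cold. AtS40-3 and AT4G04410 did not exceed 3.7 and 1.9 on any of the other arrays. Both were dim in 24f too, averaging 40.3 and 36.5, beside medians of 44.3 and 42.8 over all probe sets on the 24f arrays. PYK10 was the clearest exception, with every agar array far above 24f.

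**Figure D2:**
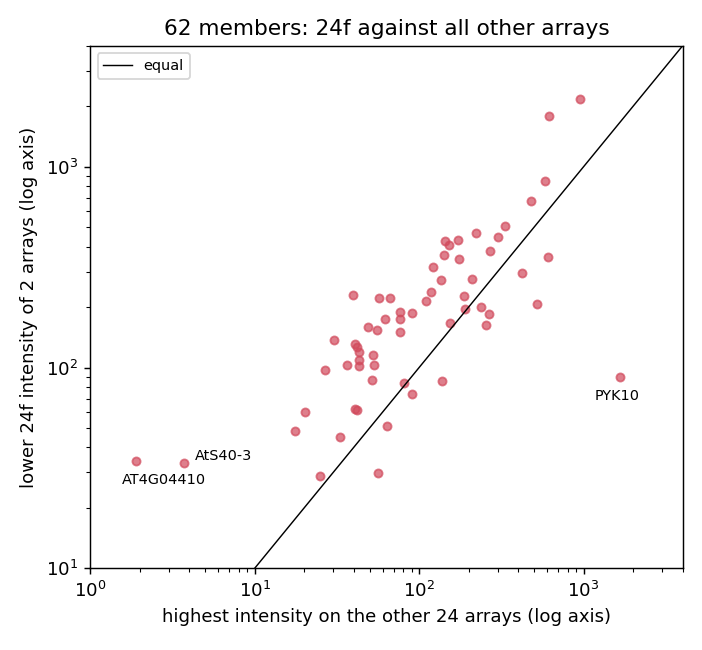
Lower of the 2 24f intensities (y axis, log scale) against the highest intensity on the other 24 arrays (x axis, log scale), 1 point per member. The 51 members above the line of equality were higher in 24f than on any other array, and PYK10 lies far to its right.

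The mutant lines' cold responses were not used to choose members, and they share no array with the wt contrast that was. Cold lowered more members than it raised. This lean was not particular to the members. Before the cold limits, 233 probe sets met the 24f and 03f limits. Of these, 169 fell by more than 1 log2 in wt cold and were left out, and 2 rose by more than 1. In limma with Benjamini-Hochberg adjustment at 0.05, 51 members passed the filter on dim probe sets of the agar arrays and 11 did not, among them AtS40-3, AT3G14280, AT4G10910, AT4G04410 and AT3G10320. In sf6, 16 of 51 fell (31.4%) and 3 rose (5.88%), where 25.9% of all tested probe sets fell and 19.5% rose. In sf3, 23 fell (45.1%) and 0 rose, against 24.2% and 20% of all probe sets. Untreated sf3 and wt arrays of the same number deviated together (r = 0.242, the highest of 48 pairs of groups). On replicate 2 of sf3 and wt, AT5G16110 read 481.1 and 462.1, beside 276.9 and 301.7 on replicate 1. Without sf3 control replicate 2 its sf3 change was -0.54, not -0.92. AT2G15580 was not higher on sf3 replicate 2 (327.2, then 307.9). The cause was not tested. At an unadjusted p under 0.05 there were 28 members in sf3 (54.9%), near the 50.5% of all tested probe sets. In sf2, 17 fell (33.3%) and 4 rose (7.84%), against 22.9% and 19.8%. The median changes of the 51 tested members were -0.24, -0.51 and -0.23 in sf6, sf3 and sf2, beside -0.06, -0.05 and -0.02 over all tested probe sets. Among the 14987 tested probe sets whose wt cold change lay within the same limits of 1, 22.6%, 20.3% and 19.3% fell and 16.1%, 16.5% and 16.4% rose. In wt itself, where the limits were set, the median was -0.47 over the 51 tested members and -0.35 over all 62. There 47 of 62 members lay below 0 and 27 were at -0.5 or lower. Of the 51 tested, limma called 23 lower (45.1%) and 1 higher (1.96%) in wt cold, against 26.3% and 20.7% of all probe sets. The rule bounds these wt changes, so they are a description.

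**Figure D3:**
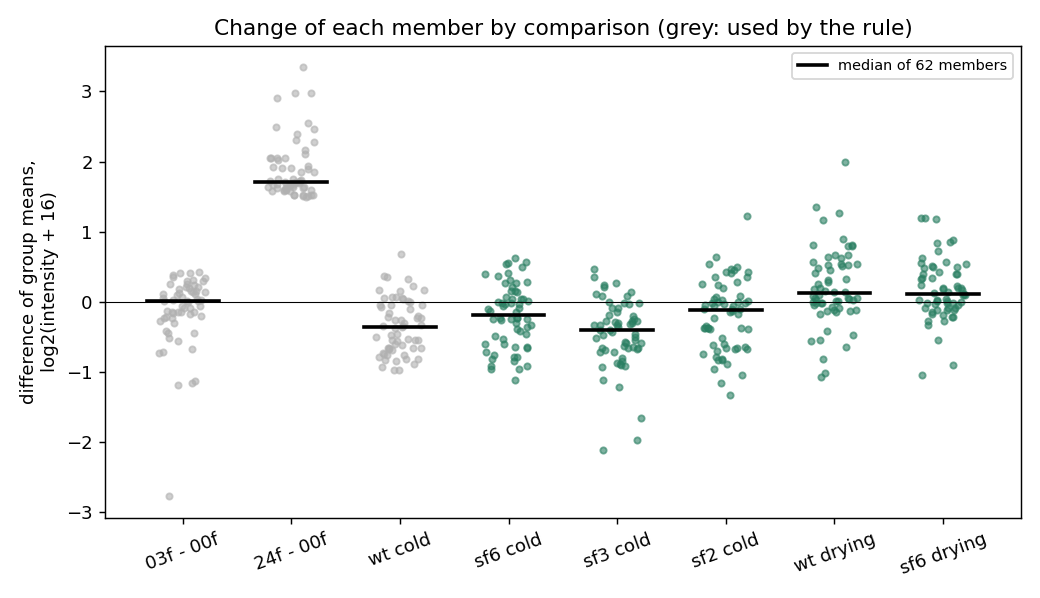
Difference of group means on the log2(intensity + 16) scale (y axis) for each of the 62 members in each comparison (x axis), with the median of all 62 as a bar. Grey points were used to choose the members; among the green comparisons sf3 cold has the lowest median and reaches -2.11.

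AT2G41250 fell in each mutant. In sf3 it read 265.4 and 248.2 untreated and 77.2 and 64.5 in the cold, a change of -1.65 ± 0.13 (SE, n = 2 arrays a group; limma adjusted p = 3.07e-08). In sf2 it went from 222.3 and 241.0 to 84.4 and 81.1 (-1.33, limma adjusted p = 4.55e-07). In sf6 it went from 141.7 and 142.3 to 68.5 and 87.0 (-0.76, limma adjusted p = 0.000151). The cold arrays of the 3 lines lay close together, and the untreated arrays of sf3 and sf2 lay above those of sf6. The change in sf3 was 0.89 log2 lower than in sf6, but this difference did not pass (limma adjusted p = 0.128).

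AT5G03230 fell in each mutant, with changes of -1.11, -1.11 and -1.04 (SE 0.20 each) in sf6, sf3 and sf2 (limma adjusted p = 0.000265, 0.000254 and 0.000512). Its cold arrays in the mutants read 21.7 to 33.7 and its untreated ones 65.7 to 97.4, with no overlap. AT2G15580 fell too, with changes of -0.92, -1.21 and -0.82 (SE 0.16 each) in the same order (limma adjusted p = 0.000151, 9.01e-06 and 0.000488). PYK10 fell as well, with changes of -0.60, -0.67 and -0.67 (SE 0.12 each) (limma adjusted p = 0.000587, 0.000224 and 0.000231).

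MYBC1 fell in sf2 from 30.6 and 29.9 to 5.7 and 3.9 (-1.15 ± 0.19, limma adjusted p = 0.000127), and by 0.79 in sf3 (limma adjusted p = 0.00292). In sf6 it fell by 0.71 (limma adjusted p = 0.00621), a call lost without sf6 control replicate 2 (0.144) or sf6 cold replicate 2 (0.0594). With AT1G23030, AT4G32460 and the unnamed 250109_at and 261480_at, these made 9 of 51 members that fell in all 3 lines (17.6%). Besides MYBC1, 3 of the 9 lost a call when single arrays were left out: AT1G23030 in sf6 (up to 0.0777), AT4G32460 in sf2 (up to 0.178) and 261480_at in sf6 (up to 0.121, and 0.0564 with median scaling). Over all tested probe sets 16.7% fell in all 3, so this share was near the background. No member rose in all 3, where 14.3% of all probe sets did.

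HIS1-3 fell in sf3 from 126.0 and 188.6 to 24.9 and 30.3 (-1.97 ± 0.26, limma adjusted p = 8.84e-06). In sf6 its change of -0.39 did not pass (limma adjusted p = 0.243), and in sf2 its change of -0.68 passed at 0.0433, a call lost under 8 of 12 alternatives, at up to 0.167. The untreated sf3 arrays were the highest of HIS1-3 on agar. The unnamed 247095_at, chosen after its values were seen, had the lowest change of any member in the mutants, -2.11 ± 0.34 in sf3 (limma adjusted p = 6.74e-05), from 274.5 and 606.9 to 48.3 and 135.1. None of the 51 members passed a test of the difference between 2 mutants' cold responses, although 10 (19.6%) had an unadjusted p under 0.05 for sf3 minus sf6, where 9.1% of all tested probe sets did. The shares were 13.7% of members beside 6.85% of all for sf3 minus sf2, and 11.8% beside 5.47% for sf2 minus sf6. Over all tested probe sets 0.0117% passed for sf3 minus sf6, 0.0234% for sf3 minus sf2 and 0% for sf2 minus sf6. For 247095_at the sf3 minus sf6 difference was -2.66 (limma adjusted p = 0.0742) and for HIS1-3 -1.58 (0.158). These interaction terms were added after the data were seen.

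AT5G16110 fell in sf3 from 276.9 and 481.1 to 185.9 and 185.4 (-0.92 ± 0.22, limma adjusted p = 0.00261), a call lost without sf3 control replicate 2 (0.0661). AT5G22460 fell in sf6 from 28.5 and 23.1 to 9.0 and 7.3 (-0.79 ± 0.28, limma adjusted p = 0.0271), a call lost without any 1 of the 4 sf6 arrays, at up to 0.135. In both cases the cold arrays lay below both untreated arrays.

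A few members rose in the cold. AT1G30700 rose in sf2 from 1.1 and 10.0 to 42.0 and 25.4 (1.22 ± 0.29, limma adjusted p = 0.00299). This call was lost without sf2 control replicate 1, where the change was 0.91. The untreated sf2 arrays were dim and lay below those of wt, sf6 and sf3, which read 16.3 to 39.0. The cold arrays of those lines read 6.3 to 39.3, near the sf2 cold arrays. AT4G23870 rose by 0.56 in sf6 (limma adjusted p = 0.0159), a call lost without sf6 control replicate 2 (0.2) or sf6 cold replicate 2 (0.178) and in a fit of the 2 groups alone (0.0514). ZCF37 read 2.0 to 3.8 on all 8 cold arrays. Its changes of -0.82 in sf6 and -0.96 in sf2 passed (limma adjusted p = 0.00105 and 0.000299), and its change of -0.33 in sf3 did not pass (0.149).

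Drying raised more members than it lowered. In wt, whose control arrays were also used by the rule, 10 of 51 members rose (19.6%) and 5 fell (9.8%), where 4.83% of all tested probe sets rose and 4.96% fell. In sf6, whose arrays the rule did not use, 5 rose (9.8%) and 2 fell (3.92%), against 2.13% and 1.78%. The wt count of 15 became 7 without either wt drought array and 9 without wt control replicate 1, and the sf6 count of 7 became 3 or 4 without any 1 of its arrays. The sf6 count was 14 in a fit of the 2 sf6 groups alone. ZCF37, counted in both lines, passed the filter on dim probe sets only through its dried arrays. The 5 members that rose in sf6 were among the 10 of wt: ZCF37, AT2G41250, AT5G51390, 252983_at and 256300_at. They are 9.8% of members, beside 1.64% of all tested probe sets that rose in both lines. Another 2 members fell in both (3.92%), where 0.973% of all probe sets did. The last of these, 256300_at, and the 2 that fell in both lines, 247189_at and 266415_at, are named after their values were seen.

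ZCF37 had the largest rise of any member in dried wt. There it went from 5.4 and 17.1 to 90.7 and 89.0 (1.99 ± 0.18, limma adjusted p = 3.04e-06). In sf6 it went from 17.6 and 16.8 to 46.5 and 43.4 (0.88 ± 0.18, limma adjusted p = 0.0096), a call lost without any 1 of the 4 sf6 arrays, at 0.0591 to 0.0945. On the undried agar arrays ZCF37 read 2.0 to 21.4, so it passed the filter on dim probe sets only through its dried arrays. It was tested in 9 of 12 alternatives for wt drying, all of which kept the call, and in 11 of 12 for sf6. The dried wt arrays lay above the dried sf6 arrays, and the difference of the responses, -1.12 for sf6 minus wt, did not pass (limma adjusted p = 0.344). No member passed that test, with 4 of 51 at an unadjusted p under 0.05, and no probe set did (0%), with 1098 of 17059 at an unadjusted p under 0.05.

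AT5G51390 rose from 22.8 and 30.3 to 64.2 and 61.0 in wt (0.89 ± 0.21, limma adjusted p = 0.0144) and from 21.7 and 17.7 to 58.7 and 39.9 in sf6 (0.86 ± 0.21, limma adjusted p = 0.0336). Its arrays did not overlap in either line, and the calls were lost with a pseudocount of 1 (0.0782 and 0.113) and under several left-out arrays, at up to 0.131 and 0.294. AT2G41250 rose from 144.2 and 151.0 to 210.9 and 269.1 in wt (0.64 ± 0.13, limma adjusted p = 0.00564) and to 235.6 and 193.4 in sf6 (0.54 ± 0.13, limma adjusted p = 0.0301). Without single arrays its adjusted p reached 0.0982 in wt and 0.281 in sf6. The unnamed 256300_at rose by 1.16 in wt and 1.19 in sf6 (limma adjusted p = 0.00131 and 0.00254) and passed under all 12 alternatives in both.

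SKP2A, AT4G23870 and AT2G15580 rose in wt by 0.67, 0.63 and 0.57 (limma adjusted p = 0.0208, 0.0336 and 0.0314). Each call was lost without wt control replicate 1 and without either wt drought array, and that of AT4G23870 also without wt control replicate 2. Without wt control replicate 1 the changes were 0.54, 0.65 and 0.42. PYK10 fell in wt from 1659.1 and 1579.7 to 950.7 and 886.2 (-0.81 ± 0.12, limma adjusted p = 0.000428), and passed under all 12 alternatives. In sf6 its change of -0.22 did not pass (0.369). AT1G23030 fell in wt by 0.65 (limma adjusted p = 0.0224), a call lost without wt control replicate 1 or either wt drought array. Its changes in those fits were -0.47, -0.54 and -0.76. HIS1-3 read 97.3 and 84.8 in dried wt beside 35.8 and 89.7 in the control, which overlap, and its change of 0.53 did not pass (0.226). In sf6 it read 62.3 and 72.8 dried beside 36.3 and 32.8 in the control, with no overlap, and its change of 0.72 did not pass (0.139).

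**Figure D4:**
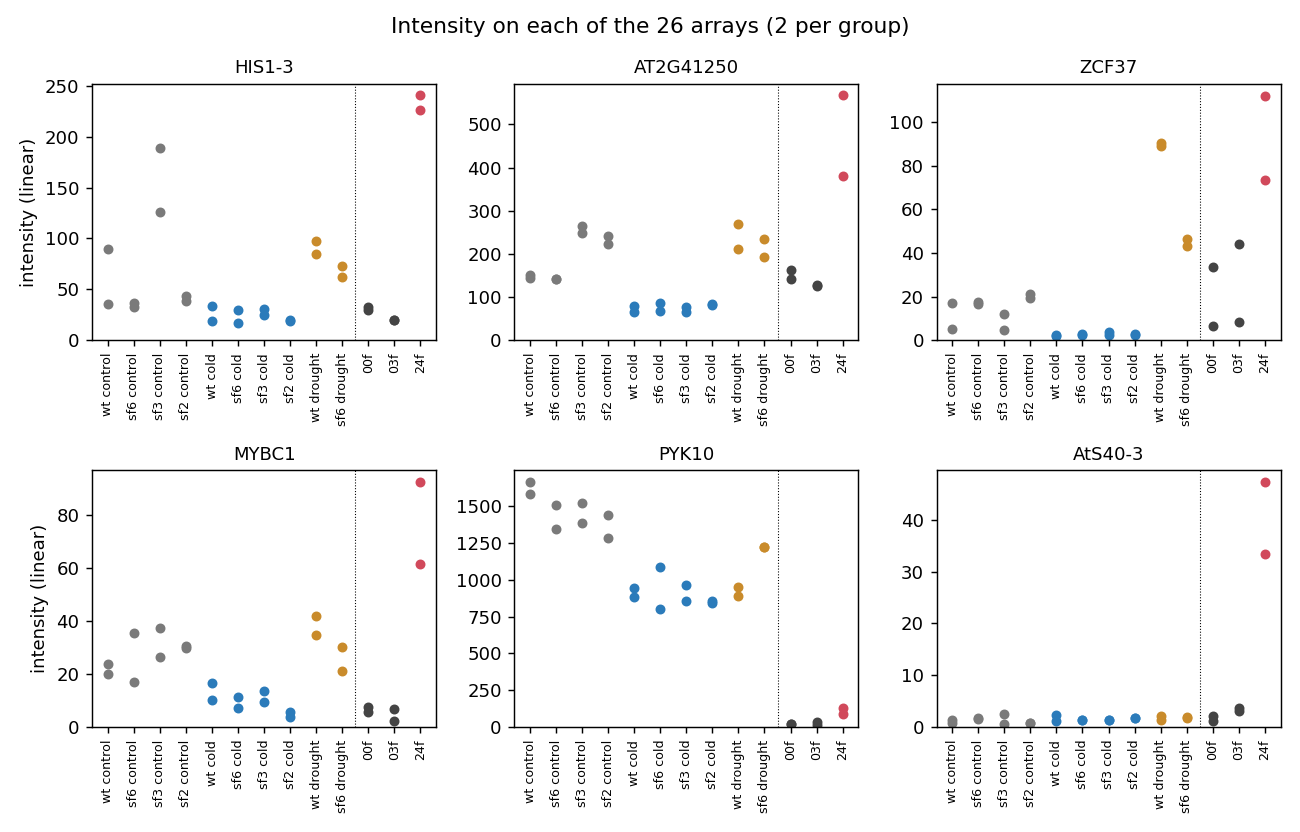
Linear intensity (y axis) of 6 members on each of the 26 arrays, 2 points per group (x axis), agar groups left of the dotted line and compost groups right of it. HIS1-3 and AT2G41250 are lower in sf3 cold than in sf3 control, ZCF37 is high in dried wt and in 24f, AtS40-3 is above 3.7 only in 24f, and PYK10 is highest on agar.

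Without treatment, few members passed between mutants and wt, in comparisons that share the wt control arrays with the rule. In sf3, 2 of 51 were called higher (3.92%), where 0.117% of all tested probe sets were. AT2G41250 was 0.74 higher (limma adjusted p = 0.034), a call lost under 8 of 12 alternatives, at up to 0.52. The other, 247095_at, read 274.5 and 606.9 in sf3 beside 45.9 and 50.7 in wt (2.73, limma adjusted p = 0.00149), and this call was lost in a fit of the 2 groups alone (0.287) and without the arrays titled repeat1 (0.0523). HIS1-3 was 1.20 higher in sf3, with no overlap of arrays, and did not pass (0.128). In sf6 and sf2, 0 members passed in limma, where 0.0293% and 0.111% of all probe sets did. At an unadjusted p under 0.05 there were 10 members in sf6 (19.6%) and 8 in sf2 (15.7%), beside 10.7% and 9.24% of all probe sets. The changes that did not pass reached -1.41 in sf6, at 247866_at (0.0824), and -1.13 in sf2, at 249467_at (0.305), both named after their values were seen.

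Lists of related genes, matched mainly by gene symbol, covered the members poorly. The lists of MYB factors and of amino acid and peptide transporters matched 0 probe sets, and the F-box and U-box list held 0 members. They missed MYBC1, AT2G26690, SKP2A and AT1G23030, although the annotation names these genes. Of 23 lists with a tested probe set, the one for sugar transport and starch breakdown held a member, AMY1. Of its 16 tested probe sets, 3 rose in 24f against 00f and 4 fell in limma, and the median was 0.03, beside 0.02 over all tested probe sets. AMY1 apart, SAG29, a sugar transporter of the SWEET family that is raised in senescing leaves, was 1.45 higher (adjusted p = 0.00866) and SWEET2 0.56 higher (0.0102). SWEET13, a sucrose exporter of leaves, fell by 2.25 (limma adjusted p = 5.78e-07), from a mean of 303.4 to 51.8, and SWEET11, SWEET4 and SWEET1 also fell. In the senescence list, which held 0 members, SAG29 and SAG101 rose and the transcription factors WRKY53 and WRKY6 fell (-0.64 and -0.50), so its 4 tested genes did not move one way. Some other lists without members moved mostly one way, and examples are given after their values were seen. Over all tested probe sets 20.9% rose and 21.4% fell. All 11 tested autophagy probe sets rose (median 1.08). For amino acid and proline catabolism 4 of 5 rose and 1 fell (median 1.87). For calcium sensors 4 of 8 rose and 0 fell (median 0.61). For protein folding in the ER 3 of 4 fell and 0 rose (median -1.01).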

How the data were processed

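Aerial RNA was measured on 26 ATH1 arrays. The deposited values are linear intensities, 1 per probe set, scaled by the authors to one trimmed mean. Their software and summary method: not given in the sources used here. Genes were named from the platform annotation, and no gene from a probe set with several. No sequence or coordinate was used, since the files name no genome build.

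Members and gene lists were chosen with earlier results of these data known. The deposited intensities, as log2(intensity + 16), were tested with limma 3.58.1 in R 4.3.3 (group means, intensity trend, replicates unblocked, Benjamini-Hochberg over all probe sets tested). Control probe sets and those with a mean below the 25th percentile were left out, leaving 17059 in the fit of 20 agar arrays and in the fit of 6 compost arrays (10 and 3 residual degrees of freedom). The agar fit was tested on simulated data for sf6 cold, sf6 drying and the difference of drying responses. The choice of members and the compost fit were not simulated. Tables and plots used Python 3.11.15, pandas 2.3.3 and matplotlib 3.10.9. The number of arrays limits the precision.

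Genes named were the 20 members with 1 gene and the largest 24f difference, up to 5 with 1 gene called in each direction of each tested comparison with no overlap of arrays, AMY1, and the probe sets beside the 24f limit. Exceptions are marked. Alternatives were pseudocounts of 1 and 64, no filter, median and quantile scaling, the replicate block, a fit of only the compared groups, no arrays titled repeat1, and each array left out. Untreated mutant comparisons, the block in the compost fit and differences between the mutants' cold responses were added after the data were seen.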

Additional observations from a re-analysis of the deposited data

How the results depend on the processing

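The choice of members depended on the scale: 126 probe sets met the rule with a pseudocount of 1 (43 shared with the 62) and 29 with a pseudocount of 64 (11 shared). Median scaling gave 62 (53 shared), quantile normalization 67 (59 shared), and leaving out single arrays 52 to 78.

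Counts of called members in the cold ranged from 13 to 18 in sf6 (main 19), 18 to 26 in sf3 (main 23) and 15 to 17 in sf2 (main 21) when single arrays were left out. For drying the ranges were 7 to 14 in wt (main 15) and 3 to 4 in sf6 (main 7), and the difference of responses stayed at 0. Without the arrays titled repeat1 the drying counts were 8 in wt and 4 in sf6, and a fit of the 2 sf6 groups alone gave 14. For untreated mutants the ranges were 0 to 2 in sf6, 1 to 2 in sf3 and 0 to 1 in sf2. Untreated sf3 gave 1 with a pseudocount of 1, 1 with no filter, 0 in a fit of the 2 groups alone and 0 without the repeat1 arrays, while untreated sf6 and sf2 gave 1 each without the repeat1 arrays. The causes were not tested beyond the smaller number of arrays. Of 1036 alternatives for 87 calls of single members, 877 kept the call, 159 lost it and 0 reversed its direction.

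With the replicate number as a block, 20, 25 and 22 members were called in the cold in sf6, sf3 and sf2, 16 and 7 after drying in wt and sf6, and 0 in the difference. Deviations of same-numbered arrays correlated at -0.248 to 0.242 over 48 pairs of groups, and at 0.101 to 0.202 for the 3 pairs of compost groups. With 2 numbers a group this does not establish pairing. Blocked, the compost fit still called 58 members higher in 24f than in 00f, with 3 higher and 4 lower in the sugar list and 2 of each in the senescence list, and 3789 probe sets higher in all (3561 unblocked). Values near the lower end of the intensity scale limit what dim members can show: 11 were not tested on agar and 4 not in compost. ZCF37 fell below the filter in some alternatives, and the tally of 1036 leaves these out. Its calls were tested in 9 to 11 alternatives, where those of the other members had 12.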
